A study of Homo sapiens with 4 samples.

Results

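The genes described here are 9 regulators of p53 that act around its negative feedback loop, namely MDM2, MDM4, RCHY1, COP1, PPM1D, CCNG1, TP53INP1, ZMAT3 and TP73. They were taken as a list of symbols, matched to gene identifiers on hg19, and make up 9 of the 57820 gene rows in the count files and 9 of the 16468 genes with enough counts for a test. RNA was sequenced from SY5Y cells, a human neuroblastoma cell line whose MYCN locus is labelled wild type, after treatment with the solvent DMSO (2 libraries) or with SGSS05-NS (2 libraries). The cells were harvested 12 h after treatment. The labels give the dose as 3 μM, as do figure legends of the study, whereas its methods name a lower dose for this line. The study calls its compound SGSS05-NS3, a covalent inhibitor of the p53 lysine methyltransferase SETD8, and also mentions an SGSS05-NS in the same patented series, so that the identity of the labelled compound with SGSS05-NS3 is taken from the match of cells and time and not from the name. In the study SGSS05-NS3 also inhibited other methyltransferases, EHMT1 among them, at higher concentrations than SETD8. All 4 libraries come from a single established line grown in culture.

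p53 is a transcription factor that is made continuously and destroyed continuously. Its main ubiquitin ligase, MDM2, is itself switched on by p53, so that active p53 raises the level of the protein that removes it. MDM4 binds the same part of p53 and blocks its activity, the phosphatase PPM1D removes the phosphate marks that free p53 from MDM2, and cyclin G1 (CCNG1) recruits a phosphatase to MDM2. RCHY1 and COP1 are further ubiquitin ligases of p53, while TP53INP1 and ZMAT3 are p53-induced genes that act with or downstream of it, and TP73 encodes a relative of p53 itself. In neuroblastoma p53 is seldom mutated at diagnosis, which makes the proteins that restrain it of interest.

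Between 21463105 and 25350204 fragments per library fell on genes on the strand of the gene. Without regard to strand, 12% and 11.8% of all fragments with DMSO, and 15.5% and 14.7% with SGSS05-NS, lay outside annotated exons. Of 13 markers of noradrenergic neuroblastoma, 12 had enough counts for a test. At an adjusted p-value under 0.001 in edgeR, 9 of these fell, against 8.14% of all genes tested. Their summed level was 5413 and 5776 CPM (the fragments of a gene scaled to a common library size with edgeR's TMM factors) with DMSO and 3270 and 3211 CPM with SGSS05-NS. TH, a defining enzyme of the lineage, was nearly absent, with 0 to 2 fragments per library. The 13 mesenchymal or Schwann-like markers summed to 266 and 296 CPM with DMSO and 229 and 222 CPM with SGSS05-NS, and PRRX1 and SOX10 had 0 fragments in every library. Of the 10 with enough counts, 8 did not pass the threshold. VIM rose and TWIST1 fell, against 6.37% of all genes tested called higher and 8.14% lower. The part of these shifts in the values below was not tested, and in bulk RNA fewer cells of a type and less RNA per cell cannot be told apart.

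The downstream promoter of MDM2 is shown because it is the textbook site of this feedback loop and MDM2 was among the genes that rose. The 250 bases before its start (RefSeq, GRCh38.p14, chr12:68808767-68809016, plus strand, 5′ to 3′) hold a match to the p53 response element, in capitals. It has 2 mismatches, the most that the search described below allowed. Elements outside the rules of that search are not marked.
MDM2 downstream promoter: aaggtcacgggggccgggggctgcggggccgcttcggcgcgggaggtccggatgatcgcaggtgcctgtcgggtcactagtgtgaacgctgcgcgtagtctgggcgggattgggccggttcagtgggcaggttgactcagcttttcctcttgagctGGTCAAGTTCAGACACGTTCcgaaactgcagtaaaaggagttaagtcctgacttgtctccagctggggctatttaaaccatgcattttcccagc

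The search used the p53 response element consensus, 2 copies of a 10-base unit without a spacer, which is its own reverse complement and so reads the same on both strands. Up to 2 mismatches in the 20 bases were allowed outside the C and G of each core. Such a match lay in the 300-base promoter windows (250 bases before to 50 after a start) of 98 of 27305 genes, or 0.359%. Windows were held for 8 of the 9 genes, all but TP53INP1, and 2 of the 8 had a match, MDM2 and TP73. The match in TP73, also with 2 mismatches, lies before an internal start of the gene (GRCh38.p14, chr1:3690596-3690615, plus strand). It is shown for comparison with that of MDM2.
TP73 internal start: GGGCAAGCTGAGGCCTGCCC

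A match is a description of letters and not a measured binding site. Of 31 genes on a list of other p53 targets for which windows were held, 3 had a match.

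The question put to these libraries was how the genes that control p53 respond when cells are treated with SGSS05-NS. Of the 9 genes, 5 rose at an adjusted p-value under 0.001 (TP53INP1, ZMAT3, PPM1D, MDM2 and CCNG1, by 1.84-fold to 3.75-fold), and MDM4, RCHY1, COP1 and TP73 did not pass this threshold in either direction. Over all genes tested, 6.37% were called higher and 8.14% lower, and 14.5% in either direction. The median log2 fold change of the 9 genes was 0.88, against 0.01 over all genes tested. At an adjusted p-value under 0.05 the same 5 genes were higher and COP1 was lower, against 22.6% higher, 23.7% lower and 46.3% in either direction over all genes. A log2 fold change of at least 1 was seen for 4 of the 9 genes and for 8.79% of all genes. Each of the 9 genes had treated libraries that lay wholly above or wholly below its DMSO libraries, but so did 37.8% (above) and 36.9% (below) of all genes tested. The plot of levels by library and that of fold changes give the values described in the following paragraphs.

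**Figure D1:**
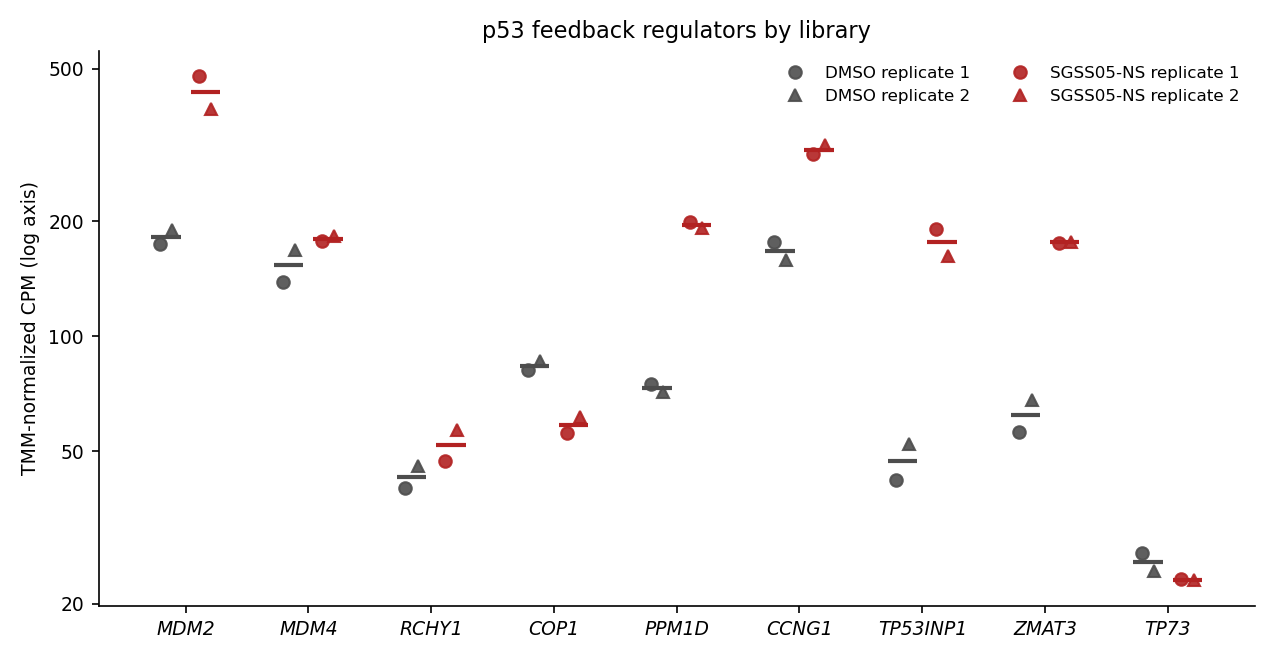
Level of each of the 9 genes in each of the 4 libraries, in TMM-normalized CPM on a log axis, with horizontal bars for the mean of the 2 libraries of a group. MDM2 went from 174 and 189 CPM to 479 and 392 CPM, whereas MDM4 was at 139 and 168 CPM with DMSO and 177 and 183 CPM with SGSS05-NS.

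**Figure D2:**
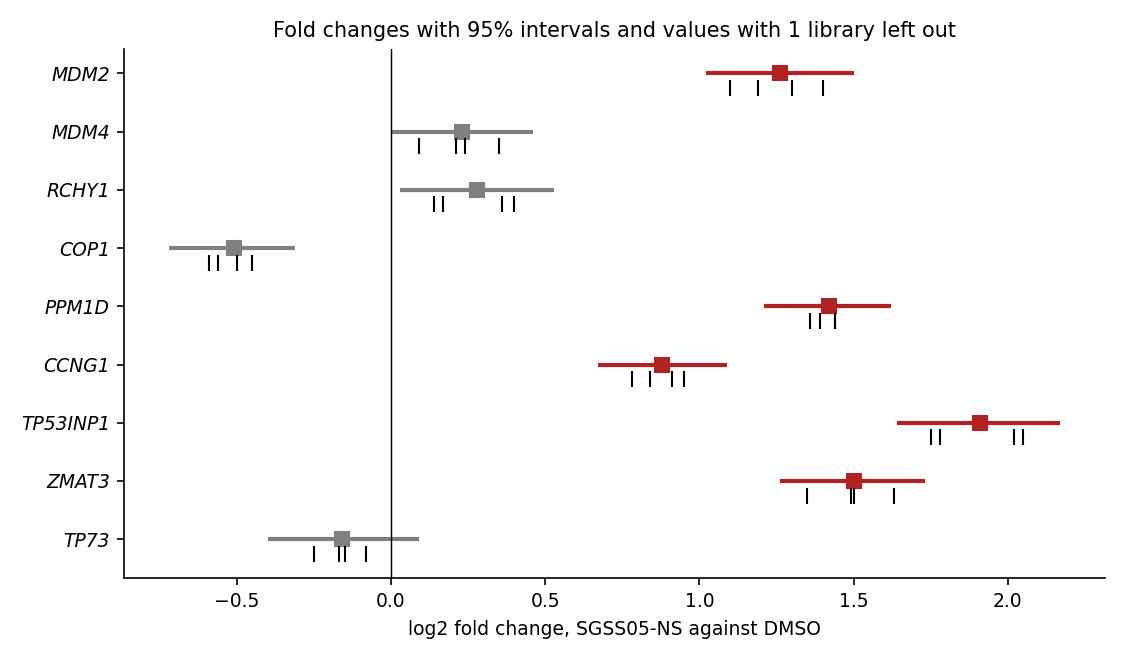
Log2 fold change of SGSS05-NS against DMSO for each gene (squares) with its 95% interval from edgeR's quasi-likelihood fit, in red where the adjusted p-value was under 0.001 and in grey otherwise. Black ticks give the value with each library left out in turn, which for MDM2 ran from 1.10 to 1.4 and for COP1 from -0.59 to -0.45.

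MDM2 (ENSG00000135679.17, GRCh37 chromosome 12 from 69201957 to 69239324, plus strand) is the principal ubiquitin ligase of p53. With DMSO it had 4376 and 4422 fragments, and with SGSS05-NS 10633 and 9214. Both treated libraries stood well above both controls, and the treated libraries differed from each other more than the controls did, with 435 ± 61.8 CPM (SD, n = 2) against 182 ± 10.5 CPM (SD, n = 2). The log2 fold change was 1.26 ± 0.11 (SE), with an adjusted p of 5.4e-06 (edgeR, quasi-likelihood, adjusted by Benjamini-Hochberg over all genes), a 2.39-fold rise with a 95% interval from 2.02 to 2.84. MDM2 was the gene of rank 132 by p-value among all those with a higher level. Averaged over the libraries of both groups, treated ones included, its mean log2 CPM lay above that of 97.2% of genes tested. Its exons share 785 bases with ENSG00000257181 and 133 bases with CPM (here the gene for carboxypeptidase M) on the opposite strand, and 439 bases with ENSG00000256664 on its own strand. Fragments lying wholly in exons that 2 genes share on 1 strand are counted for neither gene.

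MDM4 (ENSG00000198625.8, chromosome 1 from 204485507 to 204527248, plus strand), the partner of MDM2 that blocks p53 without efficient ligase activity of its own, had 3493 and 3924 fragments with DMSO and 3931 and 4296 with SGSS05-NS. Its treated libraries agreed closely with each other, at 177 and 183 CPM, and lay just above the higher control at 168 CPM. The ratio of 1.17 had a 95% interval from 0.999 to 1.37 (log2 fold change 0.23 ± 0.11 SE, edgeR adjusted p = 0.095). A change of MDM4 as large as the point estimate for MDM2 lay outside this interval.

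Because MDM2 and MDM4 act on p53 together, their ratio was computed within each library from counts per base of exon. It was 1.66 and 1.49 with DMSO and 3.58 and 2.84 with SGSS05-NS. The treated ratios were both higher than the control ratios, with a mean of 3.21 ± 0.525 (SD, n = 2) against 1.58 ± 0.118 (SD, n = 2). With 2 libraries against 2, an exact two-sided permutation test cannot give a p below 0.333, so no test was made. On counts taken without regard to strand, from which fragments over the opposite-strand neighbours of MDM2 are lost, the mean ratios were 1.27 and 2.57.

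RCHY1 (ENSG00000163743.9, chromosome 4 from 76404243 to 76439974, minus strand), also known as PIRH2, is a RING-type ubiquitin ligase of p53 that p53 can induce. It had 1003 and 1072 fragments with DMSO and 1048 and 1336 with SGSS05-NS. The lower treated library, at 47.2 CPM, was close to the higher control, at 45.9 CPM, and only the other treated library stood clear at 56.8 CPM. The ratio was 1.21, with a 95% interval from 1.02 to 1.44 (log2 fold change 0.28, edgeR adjusted p = 0.067). Its exons overlap those of THAP6 on the opposite strand by 315 bases.

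COP1 (ENSG00000143207.15, chromosome 1 from 175913967 to 176176422, minus strand, named RFWD2 in older annotation) encodes another RING-type ubiquitin ligase of p53. It was the member with the largest negative value, from 2047 and 2009 fragments with DMSO to 1238 and 1446 with SGSS05-NS. The DMSO libraries were close to each other, at 81.6 and 86.0 CPM, and both treated libraries were lower, at 55.8 and 61.5 CPM. On the log2 scale this was a difference of -0.51 ± 0.10 (SE, edgeR adjusted p = 0.0011), a ratio of 0.700 with a 95% interval from 0.606 to 0.809. This adjusted p lay just above the threshold of 0.001. In edgeR's likelihood ratio test, the test of the study, COP1 passed it with an adjusted p of 2.9e-05, and over all alternatives tried its adjusted p ranged from 7.4e-06 to 0.0026. COP1 is the longest of the 9 genes, spanning 262456 bases of the genome. Of the 1141 tested genes that span over 200000 bases, 46.4% were called lower and the median log2 fold change was -0.78, against 5.20% and 0.05 for the 14901 shorter genes with an annotated span. The part of gene span in the value of COP1 was not tested.

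PPM1D (ENSG00000170836.7, chromosome 17 from 58677554 to 58743641, plus strand) encodes the phosphatase WIP1, which reverses damage-induced phosphorylation of p53 and of the kinases that act on it. It had 1884 and 1670 fragments with DMSO and 4406 and 4525 with SGSS05-NS. Replicates were close in both groups, at 75.1 and 71.5 CPM with DMSO and 199 and 192 CPM with SGSS05-NS. The level was 2.67 times as high after treatment, with a 95% interval from 2.32 to 3.07 (log2 fold change 1.42 ± 0.09 SE, edgeR adjusted p = 5.1e-07). By p-value PPM1D had rank 60 among genes with a higher level.

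CCNG1 (ENSG00000113328.14, chromosome 5 from 162864575 to 162873157, plus strand), the gene for cyclin G1, had 4423 and 3690 fragments with DMSO and 6626 and 7430 with SGSS05-NS. The controls were at 176 and 158 CPM and the treated libraries at 299 and 316 CPM. The rise was the smallest of the 5 that passed the threshold, 1.84-fold with a 95% interval from 1.59 to 2.13 (log2 fold change 0.88 ± 0.10 SE, edgeR adjusted p = 2.8e-05).

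TP53INP1 (ENSG00000164938.9, chromosome 8 from 95938200 to 95961606, minus strand) encodes a stress protein that helps kinases phosphorylate p53 and takes part in autophagy. It had the largest rise of the 9 genes, from 1053 and 1220 fragments with DMSO to 4232 and 3815 with SGSS05-NS. In CPM the controls were at 42.0 and 52.2 and the treated libraries at 191 and 162, so both groups had a visible spread that was small beside the distance between them. The fold change of 3.75 had a 95% interval from 3.11 to 4.52, with a log2 fold change of 1.91 ± 0.12 SE (edgeR adjusted p = 4.8e-07). TP53INP1 had rank 54 by p-value among genes with a higher level. The log2 fold change was larger than that of 97.5% of genes tested. Its exons share 225 bases with NDUFAF6 on the opposite strand.

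ZMAT3 (ENSG00000172667.6, chromosome 3 from 178677909 to 178790003, minus strand) encodes a zinc finger protein that binds RNA and affects splicing and transcript stability. It had 1409 and 1594 fragments with DMSO and 3888 and 4141 with SGSS05-NS. The treated libraries were nearly equal, at 175 and 176 CPM, while the controls were at 56.2 and 68.2 CPM. The rise was 2.82-fold with a 95% interval from 2.4 to 3.33 (log2 fold change 1.5 ± 0.11 SE, edgeR adjusted p = 1.1e-06).

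TP73 (ENSG00000078900.10, chromosome 1 from 3569080 to 3652765, plus strand), which encodes p73, had the fewest fragments of the set, 682 and 567 with DMSO and 515 and 540 with SGSS05-NS. The treated libraries were at 23.2 and 23.0 CPM and the controls at 27.2 and 24.3 CPM. The ratio of 0.897 had a 95% interval from 0.756 to 1.06 (log2 fold change -0.16 ± 0.11 SE, edgeR adjusted p = 0.28). On the strand opposite to each gene, 7 of the 9 genes had higher scaled counts in both treated libraries than in both controls, against 33.7% of all genes. For 6 of these the 95% counting interval of the ratio also lay above 1, as it did for 17.6% of all genes. For TP73 these were 45 and 32 fragments with DMSO and 43 and 59 with SGSS05-NS. The counts on its own strand add up the transcripts of the main promoter, which give the full-length protein, and those of the internal promoter whose match to the p53 element is printed above, which give a shorter form that opposes p53. The gene counts do not separate the 2 forms. Exons of TP73 share 633 bases with TP73-AS1 on the opposite strand, and the strand-specific column keeps the 2 genes apart. Its relative TP63 had 0 fragments in every library.

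Levels of different genes were compared per kilobase of exon (union of exons in GENCODE 44 on GRCh37). With DMSO, CCNG1 had the highest level, 54.0 ± 4.19 CPM per kb (SD, n = 2), followed by MDM2 at 21.9 ± 1.27 and COP1 at 20.1 ± 0.746 CPM per kb. MDM4 came next at 14 ± 1.85 CPM per kb. MDM2 and COP1 differed by less than the sum of their SDs. TP53INP1 at 8.35 ± 1.28 and PPM1D at 7.79 ± 0.271 CPM per kb overlapped between libraries, and RCHY1 followed at 6.77 ± 0.659 CPM per kb. ZMAT3 stood at 5.50 ± 0.756 CPM per kb and TP73 was lowest at 3.80 ± 0.304.

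With SGSS05-NS, CCNG1 (99.2 ± 3.96 CPM per kb) and MDM2 (52.4 ± 7.44 CPM per kb) kept the first places, and TP73 (3.41 ± 0.0257 CPM per kb) the last. TP53INP1 was now next after MDM2, at 31.3 ± 3.57 CPM per kb, followed by PPM1D at 20.8 ± 0.461 CPM per kb. COP1, which was at rank 3 with DMSO, was at rank 7 with 14 ± 0.965 CPM per kb, after MDM4 (16.3 ± 0.355) and ZMAT3 (15.5 ± 0.0550). The libraries of COP1, at 13.4 and 14.7 CPM per kb, lay below those of ZMAT3, at 15.5 and 15.6. These orders depend on the length used. Per kilobase of the longest transcript, a setting chosen after seeing the data, COP1 was above MDM2 with DMSO (29.6 ± 1.1 against 24.3 ± 1.4 CPM per kb) and at rank 5 with SGSS05-NS (20.7 ± 1.43), above ZMAT3 (19.7 ± 0.0695) and MDM4 (17.9 ± 0.389). On that scale PPM1D (37.9 ± 0.84) was above TP53INP1 (31.3 ± 3.58) with SGSS05-NS. CCNG1 was highest and TP73 lowest in both groups on both scales. The plot of levels per exon length shows these orders beside the ratio of MDM2 to MDM4.

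**Figure D3:**
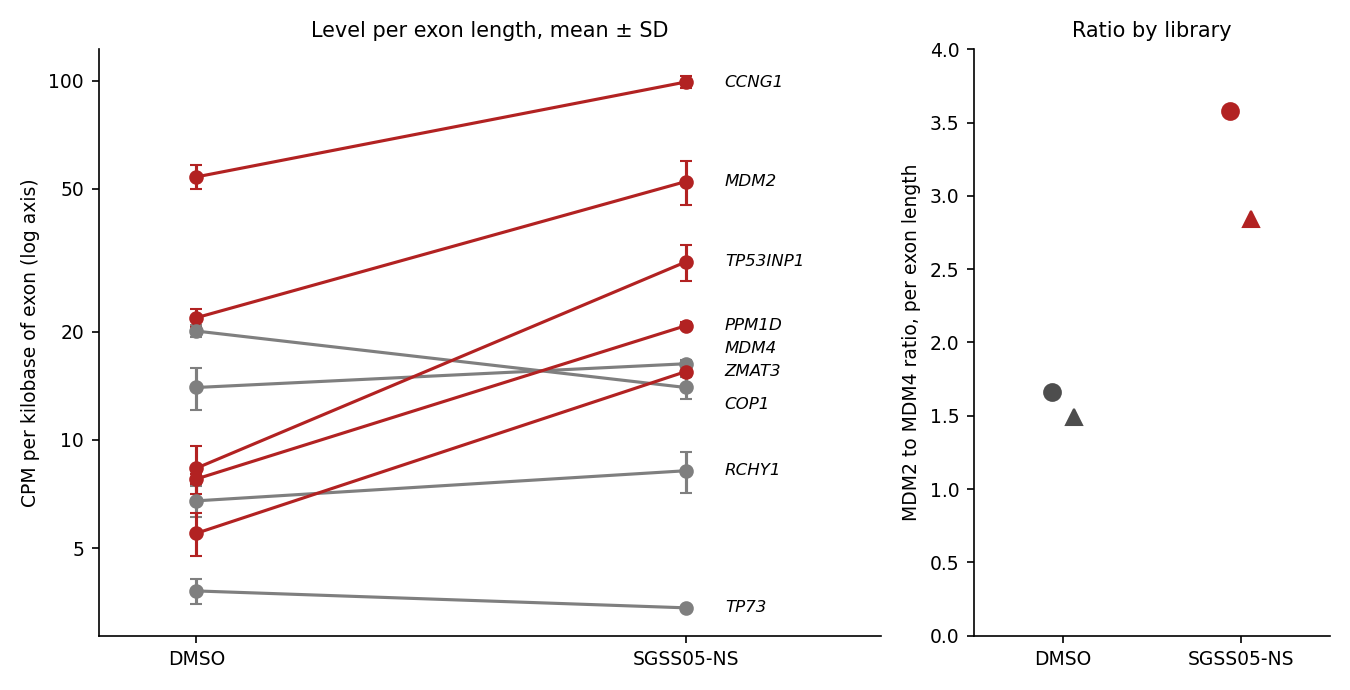
Left, mean level of each gene in CPM per kilobase of exon on a log axis, with SD bars over the 2 libraries of a group, in red for genes at an adjusted p-value under 0.001. Right, ratio of MDM2 to MDM4 per exon length in each library, from 1.49 to 1.66 with DMSO and from 2.84 to 3.58 with SGSS05-NS.

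The genes whose values over the 4 libraries lay closest to those of MDM2, among 1088 genes whose mean log2 CPM lay within 1 of its own, were FKBP4 (distance 0.276 on the log2 scale, after centring each gene on its DMSO mean), VGF (0.347) and EIF1 (0.396). For MDM4 they were DYRK2 (distance 0.0252), DDX42 (0.0721) and STRAP (0.0745), among 2181 genes chosen in the same way. These distances are descriptions over 4 libraries.

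Other genes that act around p53 were taken from lists of enzymes, partners and targets. Of 40 further p53 target genes, 36 had enough counts, 29 rose and 7 did not pass the threshold, with a median log2 fold change of 1.76. Among all genes tested 6.37% were called higher and 8.14% lower, with a median of 0.01. The smallest p-values among those that rose belonged to GDF15 (log2 fold change 7.01), SESN2 (3.82), BTG2 (3.98) and PLK3 (3.70), which encode a secreted stress factor, a stress-induced inhibitor of mTORC1 signalling, an antiproliferative factor and a polo-like kinase. The 2 with a lower level and the smallest p-values were ASCC3, at 115 ± 3.11 CPM with DMSO and 77.6 ± 12.2 CPM with SGSS05-NS (adjusted p = 0.0014, edgeR), and APAF1, at 53 ± 3.52 and 34.5 ± 9.06 CPM (adjusted p = 0.0048, edgeR). Neither passed the threshold in the quasi-likelihood test. In edgeR's likelihood ratio test both did, with adjusted p-values of 3.5e-05 and 0.00038. Both also passed it without a filter on low counts and with the replicate block, and in DESeq2 only ASCC3 passed. Neither passed in limma voom, with DESeq2 size factors or with scaling by library size. The same held with at least 10 counts in every library and on unstranded counts. Without SGSS05-NS replicate 1 the log2 fold change of APAF1 was -0.92, and without SGSS05-NS replicate 2 it was -0.37 (edgeR adjusted p = 0.017). ASCC3 spans 373179 bases, in the class of long genes described for COP1. These lists were written with earlier results of these data known and are not independent evidence of a direction.

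The enzymes that modify p53 or MDM2 included genes that rose and genes that fell, as did all genes tested, of which 6.37% were called higher and 8.14% lower. Whether the counts in these lists differ from those shares was not tested. Of 25 other ubiquitin and SUMO enzymes, 23 did not pass the threshold, and the median log2 fold change was 0.08. PIAS1, a SUMO ligase, fell by 0.54 on the log2 scale (adjusted p = 0.00096, edgeR), a call that was lost in 6 of 15 alternatives, 3 of them with a single library left out (DMSO replicate 1, DMSO replicate 2 or SGSS05-NS replicate 2), where its adjusted p reached 0.0016. SYVN1 (0.60, adjusted p = 0.0017, edgeR) and TRIM24 (-0.48, adjusted p = 0.0012, edgeR) lay just beyond the threshold, and both passed it in the likelihood ratio test. Of 14 kinases, PLK3, already named as a target gene, rose, PRKDC and AURKA fell, and 11 did not pass, with a median of 0.01. PRKDC, the catalytic subunit of DNA-PK, went from 962 ± 32.8 to 638 ± 18.7 CPM, and AURKA, a mitotic kinase, from 70.8 ± 6.70 to 40.6 ± 9.96 CPM. CSNK1D had a log2 fold change of 0.46 (adjusted p = 0.0018, edgeR) and passed in the likelihood ratio test.

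Of 16 enzymes and readers of p53 acetylation and methylation, SIRT7 and KMT5A rose, EHMT1 fell and 13 did not pass, with a median log2 fold change of 0.13. Over all genes tested, 14.5% were called in either direction. KMT5A, which encodes SETD8, the target that the study names for its compound, had 1371 and 1327 fragments with DMSO and 1838 and 1951 with SGSS05-NS. Its log2 difference was 0.57 ± 0.09 (SE, edgeR adjusted p = 0.00037), and without DMSO replicate 1 its adjusted p was 0.0017. SIRT7, a deacetylase, went from 16 ± 2.11 to 33.5 ± 2.83 CPM. EHMT1, a methyltransferase that can act on p53, went from 98.5 ± 1.57 to 52.1 ± 3.13 CPM, and spans 251025 bases, also in the long class. SMYD2 was at 74.0 ± 0.764 CPM with DMSO and 54.3 ± 3.22 CPM with SGSS05-NS (adjusted p = 0.0024, edgeR) and passed in the likelihood ratio test.

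Among 20 MDM2-binding proteins and p53 cofactors, RPS27L and RASSF1 rose, BRD7 fell and 17 did not pass, with a median of 0.09. The share of all genes tested that was called in either direction was 14.5%. RPS27L, a ribosomal protein-like regulator of MDM2 and itself a known p53 target, went from 32.9 ± 4.21 to 96.1 ± 2.89 CPM (log2 fold change 1.55, adjusted p = 8.0e-07, edgeR). RASSF1, a tumour suppressor that promotes the self-ubiquitination of MDM2, went from 5.20 ± 0.0288 to 14.3 ± 3.71 CPM. The gene count of RASSF1 adds up its transcripts and does not show which of them rose. BRD7, a bromodomain cofactor of p53, went from 110 ± 3.52 to 66.9 ± 9.64 CPM. NCL, the gene for nucleolin, was at 844 ± 15.7 and 632 ± 27.3 CPM (adjusted p = 0.0034, edgeR) and passed in the likelihood ratio test. The plot of gene lists shows each tested gene.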

How the data were processed

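RNA-seq was done on 4 libraries of SY5Y cells. The authors used Trimmomatic 0.30 for trimming and STAR 2.4.2a with GENCODE 19 for alignment to hg19 (tool versions from the submitters' processing notes). They deposited STAR's raw gene counts, 1 file per library, neither normalized nor pooled. The reverse-strand column was used, without its 4 summary rows. Symbols, positions and exon lengths came from GENCODE 44 on GRCh37, by identifier. Low genes were removed (filterByExpr, 16468 genes left), libraries were scaled by TMM, and groups were compared by the quasi-likelihood test of edgeR 4.0.16 (R 4.3.3), adjusted by Benjamini-Hochberg. Calls were made at the adjusted p-value of 0.001 used by the study. The standard error is the log2 fold change divided by the square root of F. The study names a kit for stranded total RNA, whereas the labels name a TruSeq RNA kit. The replicates differed by more than sampling noise (8.76 and 11.8 times, as chi-square over its degrees of freedom, for DMSO and SGSS05-NS). With 2 libraries per group, each gene's spread rests mostly on values borrowed across genes. The study describes the libraries of a group as independent biological replicates. The alternatives were the likelihood ratio test, DESeq2 1.42.0, limma voom 3.58.1, other scalings, filters and thresholds, unstranded counts, a replicate block, each library left out and, for levels, the length of the longest transcript (added after seeing the data). The script was tested on simulated data. The 9 genes and all lists were chosen with earlier results of these data known. Besides the 9 genes, the genes named were TP63, CCNG2, TP53INP2 and KMT5A, up to 2 higher and 2 lower genes of smallest p-value per list (4 higher for targets, and 1 gene of the lists not reported here), and the 3 nearest patterns to MDM2 and MDM4. ENSG00000257181, CPM, ENSG00000256664, THAP6, NDUFAF6 and TP73-AS1 were named for shared exons, PPM1F, VIM and TWIST1 to complete a count, and TH, PRRX1 and SOX10 as markers at or near 0, after their values were seen.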

Additional observations from a re-analysis of the deposited data

Results flagged for a closer look

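In the column of fragments on the strand opposite to each gene, which was used for no test, 6 of the 9 genes had higher scaled counts in both SGSS05-NS libraries than in both DMSO libraries, with a ratio of scaled counts whose 95% counting interval (exact binomial) lay above 1. Both conditions held for 17.6% of all genes tested, and the first alone for 33.7%. The ratio was 4.45 for ZMAT3 (interval from 1.63 to 15.1, 5 and 21 fragments in all), 3.44 for PPM1D (1.06 to 14.5, 4 and 13 fragments) and 3.07 for MDM2 (1.46 to 7.07, 10 and 29 fragments). It was 2.52 for CCNG1 (1.05 to 6.65, 8 and 19 fragments), 1.87 for RCHY1 (1.21 to 2.94, 34 and 60 fragments) and 1.4 for TP73 (1.03 to 1.91, 77 and 102 fragments). The intervals cover counting error only. On its own strand the ratio was 2.82 for ZMAT3, 2.67 for PPM1D, 2.39 for MDM2, 1.84 for CCNG1, 1.21 for RCHY1 and 0.897 for TP73. It lay inside the interval of the opposite strand for ZMAT3, PPM1D, MDM2 and CCNG1, at its lower end for RCHY1 and below it for TP73. Whether the opposite-strand counts follow those of the own strand was not tested. For MDM2 the opposite-strand fragments were between 0.0678% and 0.185% of those on its own strand, and for TP73, which shares exons with TP73-AS1, between 5.64% and 10.9%.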

How the results depend on the processing

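The 5 calls of higher genes (MDM2, PPM1D, CCNG1, TP53INP1 and ZMAT3) kept their direction and their side of the threshold in each of 15 alternatives. MDM4, RCHY1 and TP73 stayed uncalled with the same sign in each. The thresholds of 0.05 and 0.01, counted among the 15, reread the main fit. There no sign could change and no call made at 0.001 could be lost, so they say nothing about stability. With single libraries left out, which assumes that the lone library of a group varies like the others, the log2 fold change ranged from 0.09 to 0.35 for MDM4, from 0.14 to 0.40 for RCHY1 and from -0.25 to -0.08 for TP73. COP1 was not called in the quasi-likelihood test, where 1 of the 9 genes was lower at an unadjusted p under 0.05. It was called, as 1 lower gene, in the likelihood ratio test (-0.51), in DESeq2 and with DESeq2 size factors (-0.52 each), without a filter on low counts and on unstranded counts (-0.54 each), with the replicate block (-0.52) and at adjusted p-values under 0.05 and 0.01 (-0.51). It was not called in limma voom, nor with scaling by library size or at least 10 counts in every library. With single libraries left out its value ran from -0.59 to -0.45, and 0 to 1 of the 9 genes was called lower. Without DMSO replicate 1 its adjusted p was 0.00052 and without SGSS05-NS replicate 2 it was 0.00038. Over all genes, 1049 higher and 1341 lower genes became 2022 and 2267 with the likelihood ratio test, 2034 and 2570 without a filter, 3728 and 3903 at an adjusted p-value under 0.05 and 2321 and 2616 at one under 0.01. The replicate block gave 1759 higher and 2007 lower genes. The labels link the same-numbered libraries by nothing but the number. The correlation of their deviations was 0.0526 over genes, and whether they share a batch was not tested. On unstranded counts the ratio of MDM2 to MDM4 was 1.27 with DMSO and 2.57 with SGSS05-NS. Of 480 values for 32 other named genes, 419 kept their side of the threshold, 52 passed it, 9 lost it and 0 changed sign. The readings of the main fit at 0.05 and 0.01 are also among these values. The causes of these shifts were not tested. AURKA and BRD7 were not called with scaling by library size only.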

Other observations

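Of 18 relatives of the 9 genes by family, 15 had enough counts, TP53INP2 rose, PPM1L, PPM1F and ZMAT4 fell and 11 did not pass the threshold, with a median log2 fold change of -0.07. Over all genes tested, 6.37% were called higher and 8.14% lower. TP53INP2, the closest relative of TP53INP1 and a protein of autophagosome formation, had 165 and 247 fragments with DMSO and 463 and 446 with SGSS05-NS. Its log2 difference was 1.22 ± 0.19 (SE, edgeR adjusted p = 0.00027). CCNG2, the relative of CCNG1, had 1181 and 1332 fragments with DMSO and 1399 and 1390 with SGSS05-NS, a log2 fold change of 0.23 (adjusted p = 0.10, edgeR) that ran from 0.09 without DMSO replicate 1 to 0.36 without DMSO replicate 2. CCNI, a more distant cyclin, had a log2 fold change of 0.44 (adjusted p = 0.014, edgeR), which was 0.23 without DMSO replicate 1 (adjusted p = 0.22, edgeR) and 0.66, past the threshold, without DMSO replicate 2 (adjusted p = 6.8e-05, edgeR). The phosphatase gene PPM1L went from 72.5 ± 13.6 to 27.8 ± 3.44 CPM (log2 fold change -1.38, adjusted p = 1.1e-05, edgeR). ZMAT4, a relative of ZMAT3, went from 233 and 251 fragments to 47 and 63 (log2 fold change -2.06, adjusted p = 9.2e-06, edgeR). PPM1L spans 323301 bases and ZMAT4 367244 bases, and of the tested genes that span over 200000 bases 46.4% were called lower, a part in these values that was not tested. Whether relatives differ from the 9 genes in their response was not tested.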
